A study of Mus musculus with 48 samples.

Results

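The 8 genes App, Aplp1, Aplp2, Bace1, Psen2, Mapt, Apoe and Clu, which take part in amyloid, tau and brain lipid carrier biology, were followed in RNA of mouse cortex and of cortical synaptosomes (SYN) at 3 ages. The genes were chosen by name: each is the row of the count table whose Ensembl identifier carries that symbol in the GENCODE annotation. That match uses no measured value, but the set was drawn up with earlier results of these data known. They make up 8 of the 48526 genes in the table. All 8 had reads in every one of the 48 libraries and passed the filter on low counts in every comparison.

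The libraries came from 12 male wild-type C57BL/6JRj mice that received no treatment, 4 of them 3 weeks old (3w), 4 of them 5 months old (5m) and 4 of them 18 months old (18m). The protocol text gives the middle age as 5 months, whereas the sample labels give 6 months. From the cortex of each mouse, RNA was sequenced from the total homogenate (TH) and from synaptosomes, the pinched-off nerve endings collected at an interface of a sucrose gradient. Each of these was sequenced before a sucrose cushion (input_TH, input_SYN) and as the pellet of ribosomes and bound RNA that sedimented through the cushion (SC_TH, SC_SYN). Every mouse therefore gave 4 libraries, and the pellet holds whatever sediments with ribosomes rather than translating ribosomes alone.

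App encodes the amyloid precursor protein, a type I membrane protein, and Aplp1 and Aplp2 encode its paralogs. Bace1 is the beta-secretase that makes the first cut towards the amyloid peptide, and Psen2 is a catalytic subunit of gamma-secretase, the membrane complex that makes the last cut. Mapt encodes tau, a cytosolic protein that binds axonal microtubules. Apoe is the main apolipoprotein of the brain and is made largely by astrocytes. Clu (clusterin, also called apolipoprotein J) is a secreted chaperone that also travels with lipid particles. By these roles, Mapt is the only gene of the set whose product is a cytosolic protein, while the others encode membrane or secreted proteins.

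The longest transcripts of Aplp1 and Apoe have a GC content of 59.4% and 59.5%, the highest of the set, which bears on the GC and length correction used below. On the GRCm38 build the annotation places App on the minus strand at chr16:84949685-85173766, Aplp1 at chr7:30434982-30445535 (minus), Aplp2 at chr9:31149557-31211815 (minus), Bace1 at chr9:45838580-45864399 (plus), Psen2 at chr1:180227004-180263438 (minus), Mapt at chr11:104231390-104332090 (plus), Apoe at chr7:19696109-19699188 (minus) and Clu at chr14:65968483-65981547 (plus). Counts were made over exons without regard to strand. Rnf214, a protein-coding gene on the opposite strand, shares 975 exonic bases with Bace1, 15.4% of its exons, and reads there cannot be assigned to one of the genes. Of the others, App shares 113 exonic bases with an antisense transcript, and the remaining 6 share none.

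Total counts ran from 9699909 to 13225435 in input_TH, 3058278 to 15423546 in SC_TH, 1780267 to 7879536 in input_SYN and 5341263 to 18590040 in SC_SYN. The lowest count of any member was 43 reads, for Psen2 in an input_SYN library, so Psen2 has the least precise values of the set. Marker lists for cell types showed that SYN libraries did not hold neuronal RNA alone. All 12 astrocyte markers were higher in SYN than in TH at each age, in input and in SC, and their summed level was 13840 to 17550 CPM (counts scaled to library size, with TMM factors) in input_SYN and 16970 to 19430 in SC_SYN, against 4191 to 5870 in input_TH and 6243 to 7419 in SC_TH, with no marker at 0 in any library. All 12 microglia markers were higher as well at 5m and 18m, in input and in SC. In bulk RNA, a change in the number of cells or compartments of a type cannot be told apart from a change in RNA per cell.

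The 8 genes together took a larger share of the counts in each fraction of the following order. The median share was 0.408% of counts in input_TH (0.39 to 0.453), 0.78% in SC_TH (0.711 to 0.817), 1.15% in input_SYN (1.03 to 1.21) and 1.6% in SC_SYN (1.35 to 1.89), so the ranges of the 4 fractions did not overlap. The genes other than Mapt were at their lowest level in the TH libraries and at their highest in a SYN library. Mapt differed: its lowest library was an input_TH one at 349.8 CPM and its highest an SC_TH one at 793.6 CPM.

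Per kilobase of exon, Aplp1 had the highest level of the set in every fraction and age, and Psen2 the lowest. The divisor was the union of all annotated exons, 12996 bases for App and 3017 for Aplp1, and the order depends on it. Without it, App had a higher mean than Aplp1 in SC_SYN at 5m, 6570 against 5644 CPM. In input_TH at 5m the means of 4 mice were 294.9 CPM per kb for Aplp1, 204.1 for Apoe, 114.6 for Clu, 63.3 for App, 52.2 for Mapt, 49.6 for Aplp2, 13.2 for Bace1 and 2.6 for Psen2. The mice of neighbouring genes in that order did not overlap except for Mapt and Aplp2. In SC_SYN at 5m the order was Aplp1 (1871 CPM per kb), Apoe (1497), Clu (680.3), App (505.6), Aplp2 (326.4), Mapt (68.3), Bace1 (40.3) and Psen2 (7.3), and there only Aplp1 and Apoe overlapped. Per kilobase, Mapt thus stood near App and Aplp2 in homogenate and far below them in the synaptosomal pellet. Without scaling by length, its mean in input_TH at 5m was 393 CPM, beside 822.5 for App and 291.3 for Aplp2.

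**Figure D1:**
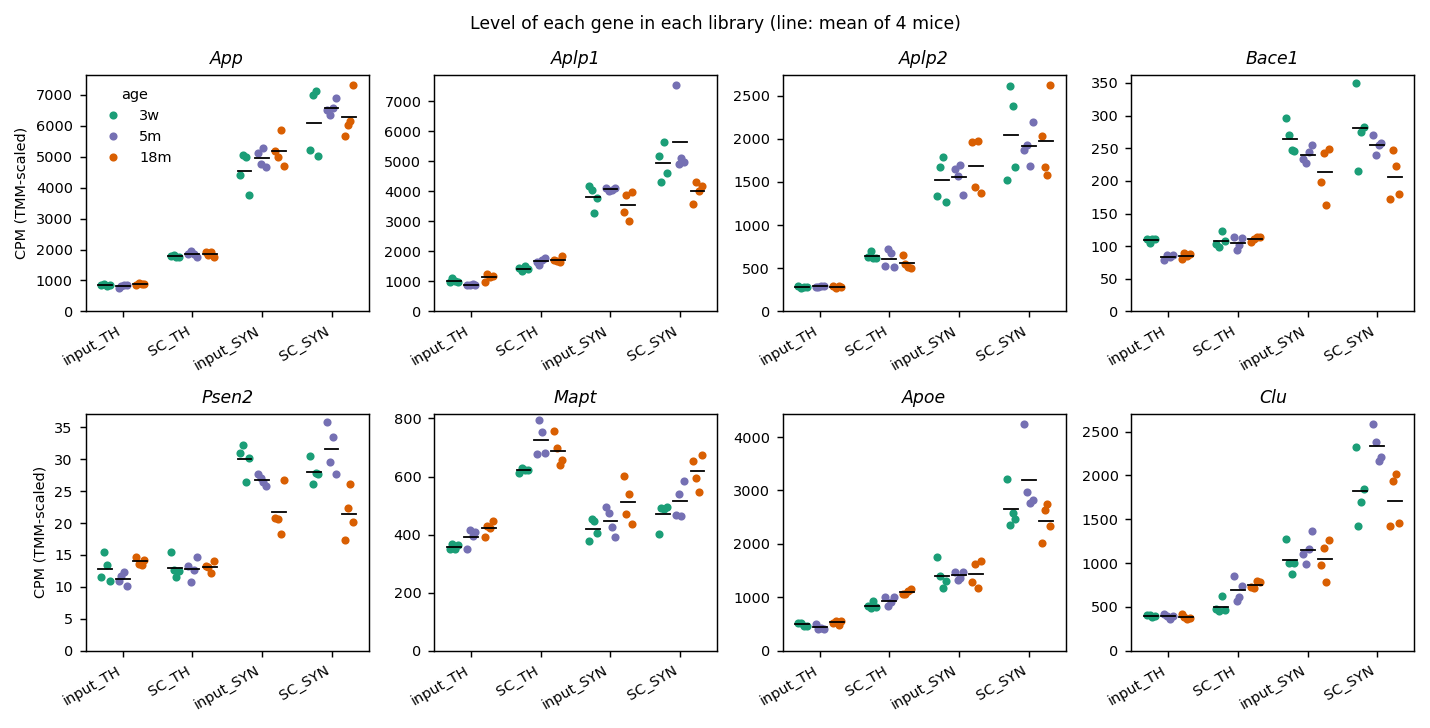
Level of each gene in TMM-scaled CPM (y axis) in each of the 48 libraries, by fraction (x axis) and age (colour); each point is 1 mouse and each line the mean of 4. App, Aplp1, Aplp2, Bace1, Psen2, Apoe and Clu lie highest in the SYN fractions, and Mapt lies highest in SC_TH, where it reached 793.6 CPM.

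The first comparison asked which of these transcripts were more abundant in synaptosomes than in the homogenate before the cushion. At each of the 3 ages all 8 had higher levels in input_SYN by edgeR's quasi-likelihood test with Benjamini-Hochberg adjustment over all genes. Of all genes tested, 71.0% passed at 3w, 72.7% at 5m and 72.3% at 18m in either direction, so passing alone does not set the 8 apart. At 5m 5826 of the 12990 that passed were higher, or 3468 of 14571 with library-size scaling. Their median log2 fold change was 1.57 at 3w, 1.78 at 5m and 1.54 at 18m, against -0.18, -0.18 and -0.12 for all genes.

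App and Aplp2 showed the largest differences of the set. In the 5m mice, App stood at 767.3, 831.9, 848.3 and 842.5 CPM in input_TH and at 5127, 4769, 5271 and 4661 CPM in input_SYN. The groups were far apart, and the fitted difference was 2.75 on the log2 scale (SE 0.088, 6.71-fold, adjusted p = 6.19e-20), at the 98.7th percentile of all genes. It was 2.55 at 3w (SE 0.087) and 2.64 at 18m (SE 0.088). Aplp2 rose from 284.7, 288.0, 293.8 and 298.8 CPM to 1646, 1568, 1693 and 1344 CPM at 5m, a log2 difference of 2.58 (SE 0.11), beside 2.54 at 3w and 2.66 at 18m. At each age the SYN and TH values of both genes stood far apart.

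Aplp1, the third gene of the precursor family, was also higher in SYN at each age, with log2 differences of 2.03 at 3w, 2.35 at 5m and 1.73 at 18m (SE 0.094 to 0.096). Its values in the 5m mice were 866.0, 893.5, 928.5 and 871.1 CPM in input_TH and 4115, 4017, 4046 and 4123 CPM in input_SYN. At 18m they were 989.7, 1254, 1152 and 1179 CPM in input_TH and 3325, 3875, 3004 and 3969 CPM in input_SYN, so the gap was smaller from both sides.

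The secretase genes were higher in SYN by less. Bace1 differed by 1.41 at 3w, 1.67 at 5m and 1.43 at 18m on the log2 scale (SE 0.101 to 0.103, 3.19-fold at 5m, adjusted p = 2.46e-14). Psen2 differed by 1.37 at 3w and 1.41 at 5m (SE 0.13) and by 0.76 at 18m (SE 0.12, adjusted p = 2.22e-06). Its 18m values were 14.63, 13.61, 13.48 and 14.25 CPM in input_TH and 20.84, 20.69, 18.31 and 26.76 CPM in input_SYN. They did not overlap, as for 64.6% of all genes.

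The lipid carriers followed the same direction. Apoe was 3.12-fold higher in SYN at 3w, 3.6-fold at 5m and 2.92-fold at 18m, and Clu 2.84-fold, 3.27-fold and 2.9-fold. At 5m Apoe stood at 506.7, 407.7, 417.8 and 413.7 CPM in input_TH and at 1483, 1316, 1370 and 1475 CPM in input_SYN. The 12 astrocyte markers had median log2 differences of 1.54, 1.51 and 1.65 at the 3 ages, beside 1.64, 1.85 and 1.54 for Apoe and 1.51, 1.71 and 1.54 for Clu, and the part of astrocyte RNA in these differences was not tested.

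Mapt was the exception in size. At 3w it stood at 351.9, 369.2, 349.8 and 364.2 CPM in input_TH and at 378.1, 453.6, 446.1 and 405.4 CPM in input_SYN. The groups sat close together without overlapping at 3w, as for 66.7% of all genes, and overlapped at the later ages. The fitted log2 differences were 0.36 (SE 0.086), 0.34 (SE 0.086) and 0.37 (SE 0.085), with adjusted p of 0.000604, 0.000954 and 0.000329 by edgeR. The sign of this small difference depends on the scaling: with library size in place of TMM factors it was -0.21, -0.31 and -0.19 at the 3 ages, as the median of all genes moved to -0.75, -0.83 and -0.70. Relative to that median, Mapt was higher by 0.54, 0.51 and 0.49 with TMM and by 0.54, 0.52 and 0.50 with library size. A change of scaling moves all genes by about the same amount, so these distances match by construction and do not settle the sign. Mapt no longer passed when only genes with at least 10 counts in every library were kept (0.08, 0.03 and 0.08).

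**Figure D2:**
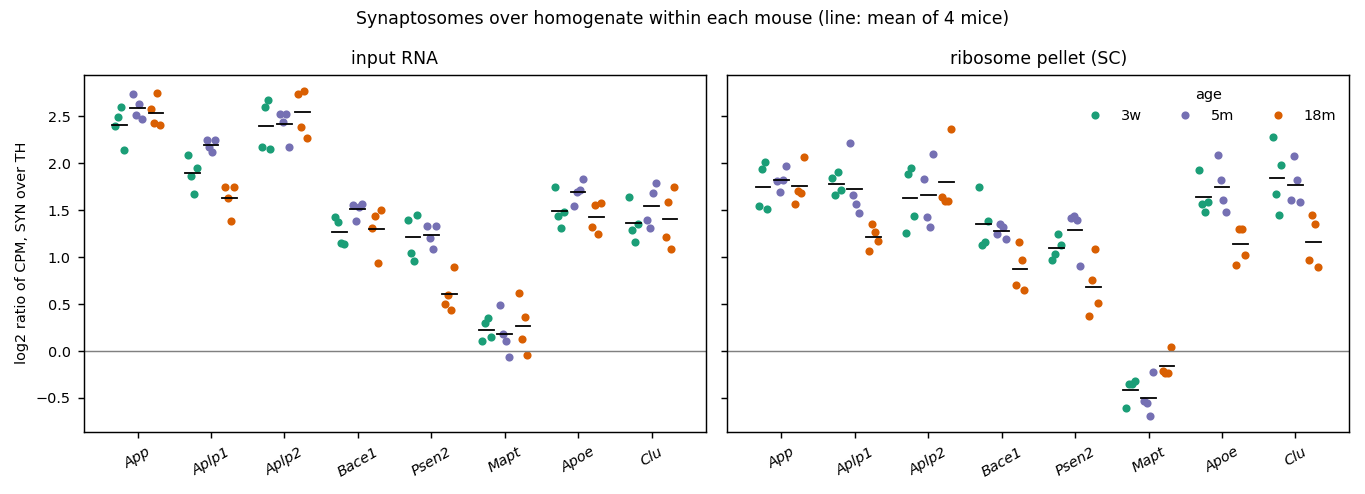
Log2 ratio of CPM in SYN over TH within each mouse (y axis), for input RNA (left) and the ribosome pellet (right), by gene (x axis) and age (colour); points are mice and lines the mean of 4. Mapt lies near 0 in input and mostly below 0 in the pellet, while the others lie above 0 in all 12 mice.

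The same question was asked of the ribosome pellets. In SC_SYN against SC_TH, 7 genes were higher at each age. Mapt was lower at 3w and at 5m and did not pass at 18m. Of all genes tested, 63.5%, 67.8% and 62.1% passed at 3w, 5m and 18m. At 5m 5334 of the 11282 that passed were higher, or 2991 of 12793 with library-size scaling. The medians of the 8 were 1.71, 1.76 and 1.22 on the log2 scale, against -0.04, -0.09 and -0.07 for all genes.

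In the pellets, App, Aplp1 and Aplp2 lay close together at the younger ages. App differed by 1.81 at 3w, 1.88 at 5m and 1.82 at 18m (SE 0.105, 3.68-fold at 5m, adjusted p = 1.87e-13 at 5m). Its 5m values were 1848, 1958, 1862 and 1753 CPM in SC_TH and 6496, 6333, 6569 and 6882 CPM in SC_SYN. Aplp2 differed by 1.72, 1.72 and 1.89 (SE 0.17), and Aplp1 by 1.83, 1.81 and 1.28 (SE 0.12 at each age). From 5m to 18m the value of Aplp1 was smaller by more than that of App, while that of Aplp2 was larger, and the tests of these differences are given with the changes with age below.

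Bace1 was higher in SC_SYN by 1.42, 1.33 and 0.95 (SE 0.12) and Psen2 by 1.15, 1.35 and 0.78 (SE 0.12 to 0.13). Apoe was higher by 1.70, 1.82 and 1.2 (SE 0.12 to 0.13) and Clu by 1.90, 1.82 and 1.24 (SE 0.14). All 4 had their smallest value at 18m. Nuclear RNA also differed by age in the pellets, with the values given below. The 18m difference of Psen2 no longer passed with library-size scaling in input (0.18, adjusted p = 0.149) or in SC (0.25, adjusted p = 0.0669).

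Mapt had 677.1, 793.6, 751.6 and 681.1 CPM in SC_TH and 468.8, 539.1, 465.7 and 582.8 CPM in SC_SYN at 5m. Every synaptosomal library lay below every homogenate library, and 61.6% of all genes did not overlap, in either direction. The fitted log2 difference of Mapt was -0.44 (SE 0.099, 0.737-fold, adjusted p = 0.00036). At 3w it was -0.36 (SE 0.099, adjusted p = 0.00276). At 18m the values were 755.7, 699.3, 640.9 and 657.5 CPM in SC_TH against 653.1, 595.4, 545.4 and 675.3 CPM in SC_SYN, which overlapped, with a difference of -0.10 (95% interval -0.30 to 0.11, adjusted p = 0.409). At that age the call depends on the scaling, since Mapt passed as lower with library size (-0.62, adjusted p = 7.39e-06), where the median of all genes was -0.60.

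Within each mouse, the SYN over TH ratio could be set side by side before and after the cushion. For App it was larger in input than in SC in 12 of 12 mice, by 0.74 on the log2 scale (SD 0.22), and for Aplp2 in 11 of 12, by 0.75 (SD 0.4). For Mapt it was larger in input in 11 of 12 mice, by 0.58 (SD 0.31), and for Aplp1 in 11 of 12, by 0.33 (SD 0.29). For Bace1 it was larger in input in 8 mice, for Psen2 in 6, for Apoe in 5 and for Clu in 4 of 12, with mean differences of 0.19, -0.0019, 0.03 and -0.16, each smaller than its SD of 0.31 to 0.46 over mice. These differences were not tested across all genes.

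Other genes of the same pathways were counted from fixed lists. Of 9 further secretase genes, all 9 were higher in input_SYN at each age and 9, 9 and 8 were higher in SC_SYN. Adam10, the main alpha-secretase, differed by 1.95, 1.76 and 2.18 in input, and Ncstn, the nicastrin subunit of gamma-secretase, by 1.67, 1.60 and 1.36 in SC. Of 11 lipoprotein receptor and transporter genes, 10, 9 and 10 were higher in input_SYN and 10 at each age in SC_SYN, with none lower. Lrp1, a receptor for Apoe-carrying particles that also binds App, was the most raised of them in SC, by 2.08, 2.32 and 1.82.

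The list of 19 genes for App adaptors and sorting was mixed. In SC_SYN, 8 were higher and 6 lower at 3w, 7 and 7 at 5m, and 8 and 4 at 18m. Sorl1, a sorting receptor of App, was higher by 1.93, 1.91 and 1.47. Of 19 tau kinase and phosphatase genes in the pellet, 4 were higher and 8 lower at 3w, 3 and 10 at 5m, and 2 and 8 at 18m. The list medians were -0.22, -0.32 and -0.26. Of all 16630 genes tested, 5173, 5334 and 4974 were higher and 5385, 5948 and 5347 lower. The list was not tested against them. Ttbk1, a neuronal tau kinase, was higher in the pellet by 0.73, 1.28 and 1.58. Cdk5r2, an activator of the kinase Cdk5, was higher by 0.82 at 5m and 0.64 at 18m. Ttbk2, of the same list, was lower at 3w (-0.61). Of 8 microtubule-associated protein genes, 4, 3 and 4 were higher and 2, 3 and 2 lower in SC_SYN, and Dcx (doublecortin, a protein of migrating neurons) was lower, by -1.53, -1.82 and -1.62.

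Of 6 genes for amyloid peptide degradation, 4, 5 and 4 were higher in input_SYN and 5 at each age in SC_SYN. Ctsb, a lysosomal protease, was the most raised of them in SC, by 1.66, 1.64 and 1.14. Neuron markers as a list were divided, with 5 higher and 7 lower of 12 in SC_SYN at 5m and a median of -0.34, beside -0.44 for Mapt. Their summed level at 5m was nevertheless higher in SYN. It was 19410 to 20320 CPM in SC_SYN against 10800 to 11440 CPM in SC_TH. In input it was 17530 to 18620 CPM in SYN against 6143 to 7523 CPM in TH. All 8 nuclear RNAs were lower in input_SYN at each age.

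**Figure D3:**
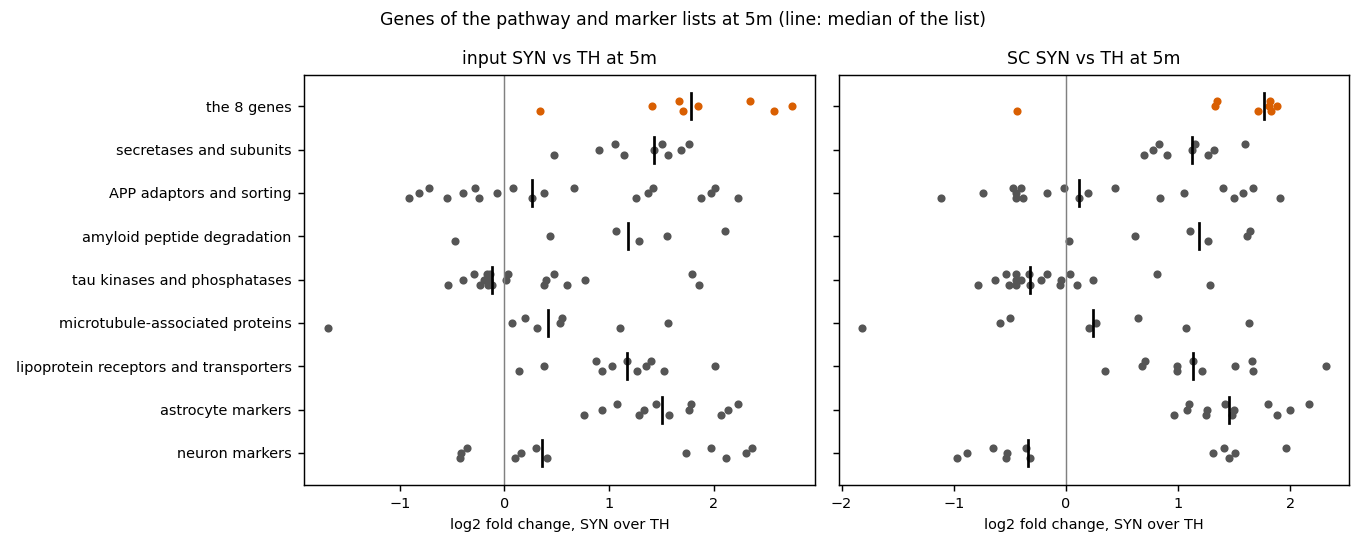
Log2 fold change of SYN over TH at 5m (x axis) for each gene of the named lists (y axis), in input (left) and in the ribosome pellet (right); points are genes and lines the list medians. Of the 8 genes only Mapt lies below 0 in the pellet, at -0.44, while the tau kinase list has its median at -0.32.

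The ratio of pellet over input, which the study took as a measure of translational efficiency (TE), was compared within each compartment. In TH, 6 of the 8 genes were higher in SC than in input at 3w, 8 at 5m and 7 at 18m, and none was lower. Of all genes tested, 52.8%, 62.1% and 64.0% passed in either direction. At 3w App went from 838.9, 892.3, 822.1 and 851.5 CPM in input_TH to 1797, 1829, 1764 and 1758 CPM in SC_TH, a log2 difference of 1.19 (SE 0.055, adjusted p = 2.28e-15), beside 1.26 at 5m and 1.12 at 18m.

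Aplp2 differed by 1.30, 1.15 and 1.03 (SE 0.092 to 0.093), Mapt by 0.92, 0.97 and 0.76 (SE 0.07 to 0.071) and Apoe by 0.90, 1.19 and 1.10 (SE 0.073). Clu differed by 0.46, 0.89 and 1.01 (SE 0.092) and Aplp1 by 0.60, 1.00 and 0.65 (SE 0.067 to 0.068). Bace1 did not pass at 3w (0.11, adjusted p = 0.167, or 0.15 and 0.0287 with a GC and length correction) and was higher in SC at 5m and 18m, by 0.41 and 0.43 (SE 0.064). Psen2 passed only at 5m, by 0.28 (SE 0.11, adjusted p = 0.0328), a call that ended with mouse as a replicate block (adjusted p = 0.0512), with library size (0.18), with a GC and length correction (0.22), with at least 10 counts in every library (0.20), and without mouse 191 (0.30) or 194 (0.16). The secretase genes thus had smaller pellet over input differences in TH than App, Aplp2, Mapt and Apoe.

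In SYN, Apoe and Clu stood out. They were the only genes of the set to be higher in SC_SYN than in input_SYN at all 3 ages. Of the 8, 3 passed at 3w, 4 at 5m and 2 at 18m, against 18.5%, 20.0% and 12.6% of all genes. At 5m Apoe stood at 1483, 1316, 1370 and 1475 CPM in input_SYN and at 4243, 2968, 2765 and 2821 CPM in SC_SYN. All 4 pellets lay above all 4 inputs, by 1.12 on the log2 scale (SE 0.15, 2.17-fold, adjusted p = 7.26e-06), and by 0.98 without mouse 191, which had the highest pellet. Apoe differed by 0.88 at 3w and 0.73 at 18m (SE 0.15).

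Clu stood at 1106, 986.3, 1164 and 1362 CPM in input_SYN and at 2591, 2384, 2169 and 2208 CPM in SC_SYN at 5m, again without overlap, as for 27.2% of all genes. The log2 difference was 0.96 (SE 0.15, adjusted p = 8.2e-05), beside 0.78 at 3w and 0.68 at 18m. The 18m call of Clu rested in part on mouse 197, without which it was 0.50 (adjusted p = 0.054). Of the 12 astrocyte markers, 7, 7 and 4 were higher in SC_SYN than in input_SYN, with medians of 0.39, 0.49 and 0.29, and the part of astrocyte RNA in the Apoe and Clu values was not tested.

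Aplp1 did not pass at 3w (0.33, adjusted p = 0.0616) but did under 5 of the planned settings and without mouse 191 (0.32). App passed at 3w (0.38, SE 0.12, adjusted p = 0.0311) and at 5m (0.35, SE 0.12, adjusted p = 0.0474), and its call was lost without any one of mice 187 to 190 at 3w (0.34 to 0.43), or any of mice 187, 188, 189 and 191 to 196 at 5m (0.29 to 0.38). Aplp1 passed at 5m (0.41, SE 0.12, adjusted p = 0.0196), but not without mouse 191 (0.24, adjusted p = 0.192) or with a GC and length correction (0.26, adjusted p = 0.0786). Aplp2, Bace1, Psen2 and Mapt did not pass at any age, with values between -0.15 and 0.39. Mapt had 0.12, 0.14 and 0.24 in SYN, where it had 0.92, 0.97 and 0.76 in TH.

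**Figure D4:**
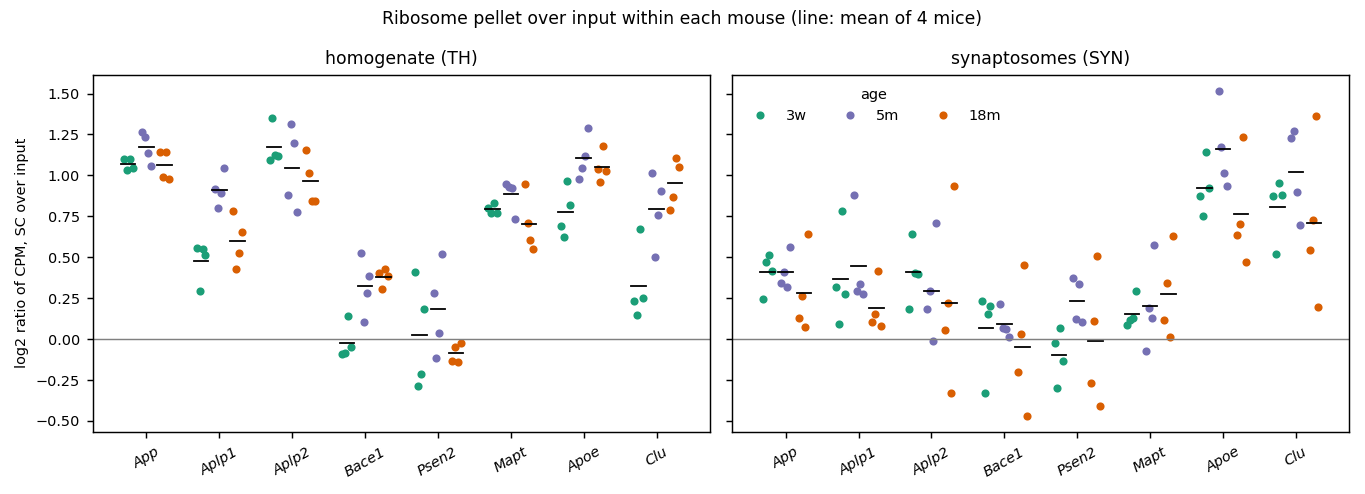
Log2 ratio of CPM in the pellet over input within each mouse (y axis), in TH (left) and SYN (right), by gene (x axis) and age (colour); points are mice and lines the mean of 4. In SYN, Apoe and Clu lie above 0 in all 12 mice, with medians over mice of 0.93 and 0.88, while Bace1 and Psen2 scatter around 0.

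Whether the pellet over input ratio changed with age was tested as an interaction. The 5m mice enter both age steps, so the later step shares libraries with the earlier one. In TH, 1 of the 8 genes passed for 5m against 3w, where 2.33% of all genes did, and none for 18m against 5m, where 1.78% did. Aplp1 gained 0.40 from 3w to 5m (SE 0.095, adjusted p = 0.0285) and had -0.35 from 5m to 18m (SE 0.095, adjusted p = 0.0512). Its input_TH values at 3w were 979.7, 1110, 1030 and 980.7 CPM and its SC_TH values 1442, 1358, 1511 and 1401 CPM, against 1633, 1557, 1724 and 1796 CPM in SC_TH at 5m. The pellet was thus higher at 5m in every mouse, and the 5m input given above was lower. Summed nuclear RNA in SC_TH was 10720 to 13960 CPM at 3w, 7751 to 10980 CPM at 5m and 5562 to 6535 CPM at 18m. In input_TH it was 19570 to 21420, 19590 to 20800 and 17590 to 19220 CPM. Its part in the ratios of TH was not tested.

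The call for Aplp1 was lost with a GC and length correction (0.16, adjusted p = 0.258), in a fit of all 48 libraries (0.41, adjusted p = 0.341) and without mouse 187 (0.44), 188 (0.35) or 194 (0.35). Over the same step Clu had 0.43 (SE 0.13, adjusted p = 0.0613, and 0.042 with mouse as a replicate block), Bace1 0.31 (SE 0.092, adjusted p = 0.061) and Apoe 0.29 (SE 0.1, adjusted p = 0.104). DESeq2 called all 4 of these genes over that step, where it called 1175 genes in all. By edgeR, Apoe passed without mouse 191 (0.39), Clu without mouse 189 (0.56) or 192 (0.51), and Bace1 without mouse 189, 192, 195 or 196 (0.32 to 0.37). For 18m against 5m, 2 of the 8 and 3137 of 18416 genes had an unadjusted p under 0.05. DESeq2 called 752 genes and 1 of the 8, Aplp1, which edgeR also called without mouse 187, 188, 190, 191 or 195 (-0.42 to -0.36). In SYN, none passed for either step and 0.00% and 0.00% of all genes did, with 473 and 393 of 14301 genes at an unadjusted p under 0.05, none of them a member, and no gene called by DESeq2.

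Changes with age were then followed within each fraction. In input_TH, 2 of 8 genes fell from 3w to 5m, where 11.8% of all genes passed. Summed astrocyte markers were 5295 to 5870 CPM at 3w and 4191 to 4932 CPM at 5m. Those of oligodendrocytes were 5909 to 7464 and 2318 to 2720 CPM, and neither sum overlapped between the ages. The sums of neuron, microglia and endothelial markers and of nuclear RNA did overlap. The part of these RNAs in the changes below was not tested. Bace1 fell from 110.7, 104.4, 111.2 and 111.5 CPM to 78.94, 86.91, 84.05 and 86.41 CPM. The groups did not overlap, as for 17.2% of all genes. The log2 change was -0.39 (SE 0.048, 0.765-fold, adjusted p = 4.82e-05), which passed under every alternative run. Aplp1 fell by 0.21 (SE 0.067) with an adjusted p of 0.0499 at the threshold, a call lost under library size, the fit of all 48 libraries, the minimum of 10 counts and without any one of mice 188 to 194, 197 and 198 (-0.24 to -0.17). Apoe did not pass (-0.18, adjusted p = 0.159). Without mouse 191, whose 506.7 CPM stood above the other 5m mice, it did (-0.27, adjusted p = 0.00458), as did Mapt, as higher (0.16, adjusted p = 0.0482, against 0.13 with all mice). With all mice, edgeR also called Mapt with library size (0.17, adjusted p = 0.0252) and with a GC and length correction (0.15, adjusted p = 0.0384).

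From 5m to 18m, 4 of the 8 genes rose in input_TH, where 15.5% of all genes passed. Aplp1 rose by 0.40 (SE 0.067, 1.31-fold, adjusted p = 0.00272) with no overlap between the groups, as for 16.8% of all genes. Psen2 rose by 0.35 (SE 0.11, adjusted p = 0.0384) from 10.86, 11.64, 12.29 and 10.13 CPM to 14.63, 13.61, 13.48 and 14.25 CPM. Apoe rose by 0.31 (SE 0.079, adjusted p = 0.0154), from the 5m values given above to 517.9, 549.4, 490.8 and 564.9 CPM. App rose by 0.14 (SE 0.046, adjusted p = 0.0457).

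The Aplp1 rise passed under every alternative run, but its values ran from 0.19 to 0.47. Its adjusted p reached 0.0462 by the test of one such run. Mapt had 0.14 (adjusted p = 0.0886) and passed without mouse 195 (0.18). The call for Apoe was lost with a GC and length correction (0.10), in the fit of all 48 libraries (0.31) and without mouse 198 (0.28), and that for Psen2 with library size (0.30), the GC and length correction (0.24), all 48 libraries (0.35) and without mouse 192, 194, 195, 196 or 198 (0.31 to 0.37). The App rise was lost under 5 of the planned settings and without any one of 10 mice (0.12 to 0.16). In the same step 4 of 12 astrocyte markers rose and 2 fell, and 7 of 12 neuron markers rose with none falling. Summed nuclear RNA was 19590 to 20800 CPM at 5m and 17590 to 19220 CPM at 18m, and summed endothelial markers 231.2 to 337.9 and 213.3 to 227.6 CPM, both without overlap. The part of these RNAs in the rises was not tested.

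In SC_TH, 2 of 8 genes rose from 3w to 5m, where 17.9% of all genes passed. Summed microglia markers there were 303.6 to 358.3 CPM at 3w and 376.1 to 488.2 CPM at 5m. Those of oligodendrocytes were 4204 to 5205 and 2179 to 2342 CPM, and neither sum overlapped between the ages. The sums of astrocyte, neuron and endothelial markers and of nuclear RNA did overlap. The part of these RNAs in the rises was not tested. Clu rose from 478.8, 449.3, 620.4 and 468.7 CPM to 848.9, 564.8, 612.7 and 736.8 CPM. One 3w mouse lay among the 5m mice, and the log2 change was 0.43 (SE 0.11, 1.35-fold, adjusted p = 0.0127), or 0.37 (adjusted p = 0.0511) without mouse 188. Aplp1 rose by 0.21 (SE 0.063, adjusted p = 0.0299), which fell to 0.02 with a GC and length correction and was not called in the fit of all 48 libraries, in a fit of only the 2 age groups or without mouse 187, 188, 190, 193 or 194 (0.16 to 0.22). Mapt had 0.20 (adjusted p = 0.076), with every 5m mouse above every 3w mouse, and passed without mouse 191 (0.25). Of all genes, 17.3% did not overlap between 3w and 5m, in either direction. From 5m to 18m none passed, against 2.17% of all genes. Apoe had 0.23 (SE 0.067, adjusted p = 0.0827) with no overlap between 840.4 to 1013 CPM at 5m and 1064 to 1149 CPM at 18m, as for 9.6% of all genes. DESeq2 called Apoe over that step (adjusted p = 0.0339), where it called 533 genes in all. By edgeR, Apoe passed without mouse 194 (0.27), and it alone of the 8 had an unadjusted p under 0.05.

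In the synaptosomal fractions no gene of the set passed edgeR's test over either age step. From 3w to 5m, 3.22% of all genes passed in input_SYN and 8.05% in SC_SYN. From 5m to 18m the shares were 0.139% and 0.0140%, which is 18 and 2 genes. At an unadjusted p under 0.05 there were 0 of the 8 in input_SYN and 1 in SC_SYN over the first step, beside 2197 of 12975 and 3723 of 14240 genes in all. Over the second there were 2 and 5 of the 8, beside 1214 and 2474 genes. DESeq2 called 1 of the 8 in these 4 comparisons, Psen2 in SC_SYN from 5m to 18m (-0.53, adjusted p = 0.0234), where it called 322 genes in all.

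In that comparison 4 genes separated by age. Psen2, of the gamma-secretase complex, stood at 35.81, 29.48, 33.48 and 27.69 CPM at 5m and at 17.28, 22.36, 26.17 and 20.1 CPM at 18m. Every 18m library was below every 5m library, with a log2 change of -0.53 (SE 0.14, 95% interval -0.82 to -0.24, adjusted p = 0.16). Aplp1 stood at 7560, 4929, 5103 and 4984 CPM at 5m and at 3579, 4318, 4007 and 4197 CPM at 18m, also without overlap, with -0.47 (SE 0.15, adjusted p = 0.187).

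Clu had 1420, 1939, 2017 and 1456 CPM in SC_SYN at 18m, all below its 5m values given above, with -0.44 (SE 0.15, adjusted p = 0.212). Apoe had 2008, 2632, 2744 and 2339 CPM there, likewise below all 5m values, with -0.38 (SE 0.15, adjusted p = 0.236). These 4 of the 8 genes did not overlap between the ages, nor did 1709 of the 14240 genes tested (12%), and 0.0140% of all genes passed. Without mouse 191 the changes were -0.47 for Psen2, -0.30 for Aplp1, -0.39 for Clu and -0.22 for Apoe. In edgeR's fit of all 48 libraries all 4 passed, with adjusted p between 0.00191 and 0.0299. That fit takes its estimate of spread from all fractions. The 0.0140% comes from the fit of SC_SYN alone, so it is no measure beside these 4 calls. Mapt went the other way, with 0.28 (SE 0.12, adjusted p = 0.257), App had -0.05 (95% interval -0.34 to 0.24) and Aplp2 0.06 (95% interval -0.35 to 0.48). The summed astrocyte markers in SC_SYN were 17690 to 19430 CPM at 5m and 18080 to 19150 CPM at 18m, and the summed neuron markers 19410 to 20320 CPM and 18150 to 20120 CPM, and both overlapped between the ages, as did those of microglia (1251 to 1648 and 984.1 to 1431 CPM), oligodendrocyte and endothelial markers. Summed nuclear RNA did not overlap, at 1115 to 2244 CPM at 5m and 2305 to 3522 CPM at 18m, and its part in these changes was not tested.

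**Figure D5:**
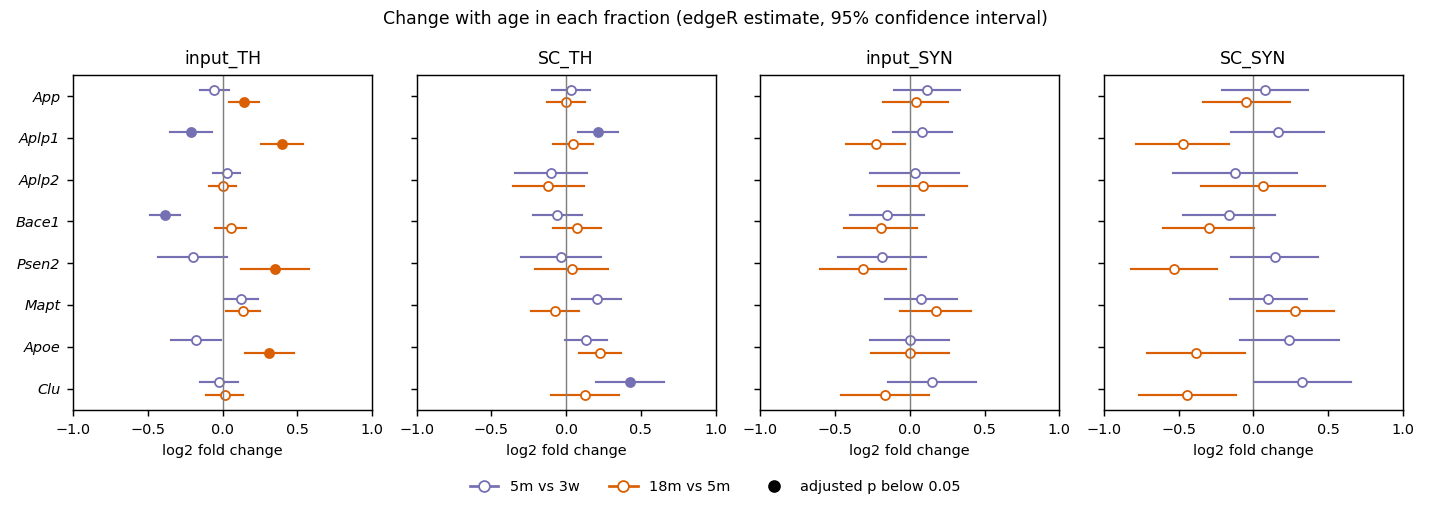
Log2 fold change between ages (x axis) of each gene (y axis) in each fraction, with 95% confidence intervals; filled points passed the adjusted threshold. Filled points occur only in the TH fractions, while Psen2, Aplp1, Clu and Apoe lie at -0.53 to -0.38 in SC_SYN from 5m to 18m without passing.

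Whether the change with age differed between SYN and TH was tested as an interaction over both compartments. In input, none of the 8 passed for 5m against 3w, where 0.0224% of all genes did. The count at an unadjusted p under 0.05 was 1 of the 8 (Aplp1, 0.32), 1437 of 17860 genes had such a p, and DESeq2 called 32 genes and none of the set. For 18m against 5m, 2 of the 8 passed, where 2.42% of all genes did. Aplp1 had -0.62 (SE 0.13, adjusted p = 0.0116): it rose by 0.40 in input_TH and had -0.23 (adjusted p = 0.45) in input_SYN. Psen2 had -0.65 (SE 0.17, adjusted p = 0.0432): it rose by 0.35 in input_TH and had -0.31 (adjusted p = 0.49) in input_SYN.

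Both kept their sign in all alternatives, and with mouse as a replicate block 2 of the 8 passed as well. The Aplp1 call was lost with a GC and length correction (-0.27, adjusted p = 0.212) and without mouse 194 (-0.59, adjusted p = 0.0517). The Psen2 call was lost with library size, all 48 libraries, no filter and the GC and length correction (-0.65 to -0.49), and without any one of mice 187, 189 and 191 to 197 (-0.69 to -0.58). The other 6 genes had between -0.30 and 0.08 and did not pass.

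In the pellets, none of the 8 passed for 5m against 3w, where 0.0301% of all genes did, or for 18m against 5m, where 0.00% did. Over the later step 2855 of 16630 genes, and 6 of the 8, had an unadjusted p under 0.05, and DESeq2 called 272 genes including Aplp1 (-0.52, adjusted p = 0.0468) and Apoe (-0.61, adjusted p = 0.0292). By edgeR Apoe had -0.62 (SE 0.17, adjusted p = 0.125), Clu -0.58 (SE 0.2), Psen2 -0.57 (SE 0.17), Aplp1 -0.53 (SE 0.16) and Bace1 -0.38 (SE 0.16), while Mapt had 0.34 (SE 0.14, adjusted p = 0.22). The 95% intervals of all of these exclude 0 before adjustment, and those of App (-0.35 to 0.24) and Aplp2 (-0.31 to 0.66) include it. Over the earlier step no member had an unadjusted p under 0.05, 1324 genes in all did, and DESeq2 called 55 genes and none of the set. Summed nuclear RNA in SC_TH was 7751 to 10980 CPM at 5m and 5562 to 6535 CPM at 18m, lower without overlap. In SC_SYN it was 1115 to 2244 CPM and 2305 to 3522 CPM, higher without overlap. Its part in the values of the later step was not tested.

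From 5m to 18m no gene of the 6 pathway lists passed edgeR's test in input_SYN or SC_SYN, where 18 and 2 genes in all passed. From 3w to 5m, 5 list genes passed in input_SYN and 8 in SC_SYN. In SC_SYN 3 secretase genes fell, among them Bace2 (-0.85) and Adam17 (-0.64). Fyn, a kinase of tau, fell over that step in all 4 fractions (-0.54 in input_TH, -0.46 in SC_TH, -0.77 in input_SYN and -0.82 in SC_SYN), as did Dcx (-0.49, -0.82, -0.93 and -1.13). Lrp1 rose over that step in input_SYN (0.45) and SC_SYN (0.62). In SC_TH the cathepsins Ctsd and Ctsb rose by 0.55 and 0.44, and Apod, a lipocalin that carries lipids, and Abcg1, a cholesterol exporter, by 0.84 and 0.73. The 12 oligodendrocyte markers fell over the same step in input_TH, by a median of -1.35, and 10 or 11 of 12 fell in each of the other fractions.

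Across the 48 libraries, the log2 levels of the genes other than Mapt followed each other, with Pearson r from 0.83 to 0.99 between any 2 of them, whereas Mapt had r from -0.17 to 0.28 with the rest. These values describe libraries that share mice, fractions and depth, and they are carried by the 4 fractions. The genes with the pattern most like that of App were Atp2b3 (r = 0.995, n = 48 libraries) and Os9 (0.994), those most like Aplp1 were Igsf8 and Cspg5 (0.994 and 0.993), and those most like Aplp2 were Cadm1 and Canx (0.996 and 0.994). For Bace1 they were Fxyd6 and Slc27a4 (0.99 and 0.989) and for Psen2 Sema6b and Xylt2 (0.967 and 0.961). Mapt was closest to Gabarapl1 and Smarca4 (0.933 and 0.924). Apoe was closest to Aldoc (0.983), a marker of the astrocyte list, and Pcdhgc3 (0.982), and Clu to Bsg and Cst3 (both 0.986).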

How the data were processed

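RNA was sequenced as rRNA-depleted, directional libraries with molecular identifiers. The authors aligned reads with TopHat2 (version 2.1) to GRCm38 and counted them per gene with featureCounts without strand; whether duplicates were removed by identifier is not given in the sources used here. The deposited counts are raw whole numbers for 48526 genes in 48 libraries (depths in the report). Of these identifiers 48144 were found in GENCODE vM21, and the others held 0.0596% of counts. Samples were grouped by fraction and age from the labels. The 28 comparisons were tested with edgeR 4.0.16 (R 4.3.3), quasi-likelihood, TMM, filterByExpr, Benjamini-Hochberg over all genes at 0.05, in separate fits of each fraction (12 libraries), input or SC (24), and TH or SYN (24). CPM levels and within-mouse ratios were scaled by TMM over all 48 libraries with a prior count of 2 for log2 values, so they can differ slightly from fitted differences. Per kilobase levels used the union of exons. p-values of the 12-library fits measure the spread between mice. Those of the 24-library fits measure the spread between libraries within groups, with libraries of the same mouse treated as independent unless mouse was a block.

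Mouse numbers pair the samples, since all 4 libraries of a number came from 1 animal. The deviations of same-mouse libraries from their group means correlated by -0.375 to 0.36 (median 0.0772, 72 pairs of libraries). The members and lists were chosen with earlier results of these data known. All 8 members were reported in every comparison, and from each list at most the 2 genes with the largest change among those that passed. From likeness, genes below a mean of 20 CPM and unnamed gene models were left out. Alternatives were library size, no filter, at least 10 counts in every library, a GC and length trend (loess, span 0.5, GC of the longest transcript), DESeq2 1.42.0, all 48 libraries in one fit, only the 2 ages compared, mouse as a block, and each mouse left out. The fits were tested on simulated data. Sequences were not used here.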

Additional observations from a re-analysis of the deposited data

Results flagged for a closer look

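In 5 groups of 4 mice, the values held a library that stood far from the other 3, as the ratio of its gap to the group's range was above Dixon's 95% critical value for 4 samples. They were 5 of 96 groups checked, where chance gives about 1 in 20. Aplp1 in SC_SYN at 5m had a ratio of 0.934, with mouse 191 at 7560 CPM and the others at 4929 to 5103 CPM. Apoe in SC_SYN at 5m had 0.863, again with mouse 191 at 4243 CPM and the others at 2765 to 2968 CPM. Apoe in input_TH at 5m had 0.898, with mouse 191 at 506.7 CPM and the others at 407.7 to 417.8 CPM. Summed microglia markers in SC_SYN at 5m were 1648 CPM in mouse 191 and 1251 to 1359 CPM in the others, and astrocyte markers 17940 CPM against 17690 to 19430 CPM. In input_TH at 5m, mouse 191 had lower sums of neuron (6143 CPM against 7184 to 7523), astrocyte (4191 against 4859 to 4932) and oligodendrocyte markers (2318 against 2653 to 2720). It had higher sums of microglia (282.1 against 252.8 to 265.8) and endothelial markers (337.9 against 231.2 to 251.3) and a TMM factor of 1.244 against 1.17 to 1.175. The part of these differences in the Aplp1 and Apoe values was not tested. Bace1 in input_TH at 3w had 0.883, with mouse 188 at 104.4 CPM and the others at 110.7 to 111.5 CPM. Mapt in SC_SYN at 3w had 0.901, with mouse 187 at 402.2 CPM and the others at 487.2 to 496.6 CPM.

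Changes with age differed between compartments or library types, by an interaction test across all genes with edgeR, in 3 results. Aplp1 changed from 5m to 18m by 0.62 less on the log2 scale in input_SYN than in input_TH (-0.6171), and Psen2 by 0.65 less (-0.6464). The pellet over input difference of Aplp1 in TH was larger at 5m than at 3w by 0.3991.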

How the results depend on the processing

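The SYN over TH differences kept their sign in all alternatives except those of Mapt in input with library size, which were -0.2095 at 3w, -0.3117 at 5m and -0.1926 at 18m. Of 196 counts of members that passed in a setting that left out no mouse, 169 lay within 1.5 times the reported count and 27 did not; the cause was not tested. Beside the reported number in each case, for input_TH from 3w to 5m (2), 1 passed with all 48 libraries and 1 with at least 10 counts in every library. For input_TH from 5m to 18m (4), 2 passed with library size, 2 with the GC and length trend removed and 1 with all 48 libraries. For SC_TH from 3w to 5m (2), 1 passed with the GC and length trend removed, 1 with all 48 libraries and 1 with only the ages compared, and for SC_TH from 5m to 18m (0), 1 with DESeq2. For SC_SYN, 1 passed with all 48 libraries from 3w to 5m (0), and from 5m to 18m (0) 1 with DESeq2 and 4 with all 48 libraries. For SC against input in SYN at 3w (3), 5 passed with all 48 libraries.

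For the age change of SYN minus TH from 5m to 18m in input (2), 1 passed with library size, 0 with the GC and length trend removed, 1 with all 48 libraries and 1 with no filter, and in SC (0), 2 with DESeq2. For the change of SC over input in TH from 3w to 5m (1), 4 passed with DESeq2, 0 with the GC and length trend removed, 0 with all 48 libraries, 4 with no filter, 2 with at least 10 counts and 2 with mouse as a replicate block, and from 5m to 18m (0), 1 each with DESeq2, no filter and at least 10 counts. Pairing by mouse as a replicate block changed no other call than that of Clu over the first of these steps and that of Psen2 for SC against input in TH at 5m.

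With each mouse left out, the members that passed numbered 1 to 3 for input_TH from 3w to 5m, 1 to 4 from 5m to 18m, 0 to 3 and 0 to 1 for SC_TH over the same steps, 0 to 2 for the input age change of SYN minus TH from 5m to 18m, 0 to 3 and 0 to 1 for the change of SC over input in TH, 2 to 4, 2 to 4 and 1 to 2 for SC against input in SYN at 3w, 5m and 18m, and 7 to 8 in TH at 5m. Psen2, at 43 to 344 counts per library, is the member that depth limits most. Library size also moved the split of all genes that passed, from 861 higher of 2136 to 1411 of 2383 in input_TH from 3w to 5m, from 1479 of 2808 to 996 of 3059 from 5m to 18m, from 180 of 432 to 423 of 623 for the input age change of SYN minus TH from 5m to 18m, and from 185 of 429 to 105 of 461 for the change of SC over input in TH from 3w to 5m.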
